A study of Mus musculus with 4 samples.

Results

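The genes described here encode the serine/arginine-rich (SR) and heterogeneous nuclear ribonucleoprotein (hnRNP) splicing regulators of mouse embryonic stem cells (ESCs). They were taken by a rule on names that uses no measured value, though it was set with earlier results of these data known. The rule takes every gene called Srsf and a number, every gene whose symbol starts with Hnrnp, and the 12 genes Tra2a, Tra2b, Ptbp1, Ptbp2, Ptbp3, Rbfox2, Mbnl1, Mbnl2, Celf1, U2af1, U2af2 and Sf3b1. This gave 45 of the 49997 genes in the count table, and 44 of them were among the 18341 genes with enough reads to test. They were 11 SR genes, 2 Tra2 genes, 22 hnRNP genes of which 21 were tested, and 10 other regulators. The gene left out of the test was the pseudogene Hnrnpa1l2-ps, with 1, 2, 5 and 3 reads in the 4 libraries.

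The cells were of the E14 line, a pluripotent mouse ESC line, grown on gelatin with leukemia inhibitory factor, and per the study's methods they carried a tdTomato reporter driven by the MERVL promoter. Both groups had been infected with lentivirus carrying a short hairpin RNA and selected with puromycin. The control hairpin was a scrambled sequence (shScramble, n = 2 libraries), and the other hairpin was directed at Ythdf2 (shYthdf2, n = 2), the gene of a cytoplasmic reader that binds N6-methyladenosine (m6A) in mRNA and promotes its decay. The study's methods list a pair of hairpins against Ythdf2, and it is not labelled which of them was used for these libraries, so effects of the target and of 1 hairpin cannot be told apart. Poly(A) RNA was sequenced, and the comparison asks which mRNAs differ in abundance when the reader is depleted.

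Splicing regulators decide which exons of a pre-mRNA are joined. SR proteins bind exonic enhancers and mostly promote the use of nearby splice sites, while hnRNP proteins coat nascent RNA and often silence exons. Many of these genes control their own mRNA through a poison exon, whose inclusion sends the transcript to nonsense-mediated decay (NMD). Some have a known tie to m6A: HNRNPA2B1 and HNRNPC bind RNA in a way that depends on m6A, and SRSF3 and SRSF10 bind YTHDC1, the nuclear reader. The counts used here are sums over all exons of a gene, so they give mRNA abundance and not exon use.

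The libraries held between 31113006 and 36422510 counted reads. Ythdf2 was at 93.4 and 87.6 CPM (reads scaled to a common library total by TMM) in shScramble and at 31.8 and 30.2 CPM in shYthdf2. It fell to 34.2% of the control level (log2 fold change -1.55, SE 0.11, adjusted p = 0.00069 by edgeR's quasi-likelihood test with Benjamini-Hochberg adjustment). The 10 ESC markers summed to 7416 and 7288 CPM in shScramble and to 6990 and 6516 CPM in shYthdf2, and 1 of the 10, Tdgf1, was called lower. For the 2-cell-like (2C-like) state, taken up by few cells of an ESC culture, 15 markers summed to 51.6 and 79.5 CPM in shScramble against 102 and 264 CPM in shYthdf2, with 3 markers called higher and none lower. Neural markers summed to between 336 and 403 CPM, fibroblast markers to between 12.9 and 28.7 CPM with Dcn at 0 reads in all 4 libraries, and primitive endoderm markers to between 105 and 134 CPM, with sums that overlapped between the groups in each. The neural sum hides members that differ in opposite directions: the 8 neural markers tested had log2 fold changes from -0.88 to 0.79, and 1, Nes, was called higher. The ESC sum also holds both directions: 7 of the 10 markers had a negative log2 fold change. The other 3 had a small positive one, Esrrb at 0.04, Pou5f1 at 0.13 and Utf1 at 0.15. The 2C-like sum (higher) and the ESC sum (lower) moved with the groups compared, and the part of either in the values of the splicing regulators was not tested. In RNA from bulk cultures, fewer cells of a type and less RNA per cell cannot be told apart.

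To show what the mRNAs of these genes hold that a reader of m6A could meet, the 5-base motif GGACT, the most favoured form of the m6A consensus, was searched in the transcript of each gene with the longest coding sequence (GENCODE M21, GRCm38, which is the mm10 build). The search was on the transcript's own strand only. Methylation was not measured in these files, so a match marks letters and not a modified base. The windows below are 21 bases long, 5′ to 3′, with the motif in capitals. Each is the match nearest to the stop codon of its gene. They were chosen to show the members with the lowest p-values (Hnrnpll, Ptbp3, Hnrnpul1), paralogs whose windows resemble each other (Ptbp1 and Ptbp3, the Hnrnph genes), and a pair of named members with a match close to the stop codon (Srsf10, Rbfox2).
Hnrnpll, coding sequence in exon 6, chr17:80048627-80048647, minus strand: gacagttgGGACTacactaaa
Hnrnpul1, coding sequence in exon 12, chr7:25726177-25726197, minus strand: gatgtcggGGACTtcctggat
Ptbp3, coding sequence in exon 13, chr4:59481451-59481471, minus strand: ctgaccaaGGACTtcagcaat
Ptbp1, coding sequence in exon 12, chr10:79862760-79862780, plus strand: ctgaccaaGGACTatggcagc
Hnrnph1, coding sequence in exon 5, chr11:50381488-50381508, plus strand: ttgccggtGGACTtccagggg
Hnrnph2, coding sequence in exon 3, chrX:134605334-134605354, plus strand: ctgccagtGGACTttcagggg
Hnrnph3, coding sequence in exon 3, chr10:63018849-63018869, minus strand: ttgacgatGGACTaccagggg
Srsf10, coding sequence in exon 6, chr4:135863990-135864010, plus strand: aaggtcttGGACTagtcccaa
Rbfox2, 3′ UTR in exon 14, chr15:77084075-77084095, minus strand: ctagtagaGGACTctatagca

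Since every window holds the motif, only the 16 letters around it were compared. The windows of Ptbp1 and Ptbp3 shared 11 of these 16 letters, and in both the middle base of the motif lay 307 bases before the end of the coding sequence. The nearest match in Ptbp2 lay 333 bases before that end and shared 5 of the 16 letters with Ptbp1. Hnrnph1 shared 13 of the 16 letters with Hnrnph2 and 13 with Hnrnph3, and Hnrnph2 shared 10 with Hnrnph3. Of the other pairs compared, Ptbp2 and Ptbp3 shared 6 of the 16, and Hnrnpa1 and Hnrnpa3 shared 7. The windows of Ptbp1, Ptbp3 and the Hnrnph genes were shown because they resemble each other, so their high counts follow from that choice. Across the 43 members with a coding transcript, 39 (90.7%) held at least 1 GGACT, against 91.5% of the 14063 tested genes with such a transcript. Per length the motif was sparser in the members, with a median of 0.556 matches per kb against 1.06 per kb over those 14063 genes, and a median of 0.382 per kb in the SR genes. A match within 200 bases of the stop codon, the region where m6A is known to be common, was found in 10 of 43 members (23.3%) and in 39.7% of all genes. Hnrnpa2b1, Hnrnpab, U2af1 and Srsf5 held no GGACT in the transcript searched. That transcript had 1728 bases for Hnrnpa2b1 and 1437 for Hnrnpab, where the counted exons cover 4276 and 2545 bases. Not all counted bases of these genes were therefore searched. These shares describe the sequences of the chosen transcripts, and no test was made on them.

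Taken as a class, the mRNAs of the splicing regulators were abundant and held nearly the same share of the libraries in both groups. The 45 genes took 1.99% and 1.98% of the reads in shScramble and 1.94% and 1.94% in shYthdf2. Their summed level was 20136 and 19525 CPM in shScramble and 19735 and 19091 CPM in shYthdf2, and the groups overlapped. The SR genes summed to 3940 and 3682 CPM against 3971 and 3654 CPM, which also overlapped. The hnRNP genes summed to 12890 and 12671 CPM against 12551 and 12208 CPM, so both shYthdf2 libraries were lower, with a log2 ratio of the means of -0.05.

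Levels between genes were compared per length, as TPM (reads scaled for exon length and library). The most abundant members were Hnrnpa1, an hnRNP that binds exonic silencers and takes part in mRNA export, at a mean of 1345 TPM, and Hnrnpab at 1087 TPM. Hnrnpa2b1 followed at 785 TPM, then Srsf5 at 663 TPM and Hnrnpk, a poly(C)-binding hnRNP, at 638 TPM. In single libraries Hnrnpa1 lay between 1234 and 1443 TPM, all above the range of Hnrnpab, and Hnrnpa2b1 lay above Srsf5 and below Hnrnpab in each library. Below them Hnrnpm (614 TPM), Hnrnpa0 (591 TPM), Ptbp1 (556 TPM) and Srsf2 (516 TPM) followed in close steps, and from Srsf5 to Ptbp1 the libraries of neighbours overlapped. The lower end held Ptbp2 (21.3 TPM), Srsf4 (16.8 TPM), Mbnl2 (16.5 TPM), Mbnl1 (4.70 TPM) and Srsf12 (1.30 TPM), and the pseudogenes Hnrnpa1l2-ps2 and Hnrnpa1l2-ps at 0.474 and 0.139 TPM.

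**Figure D1:**
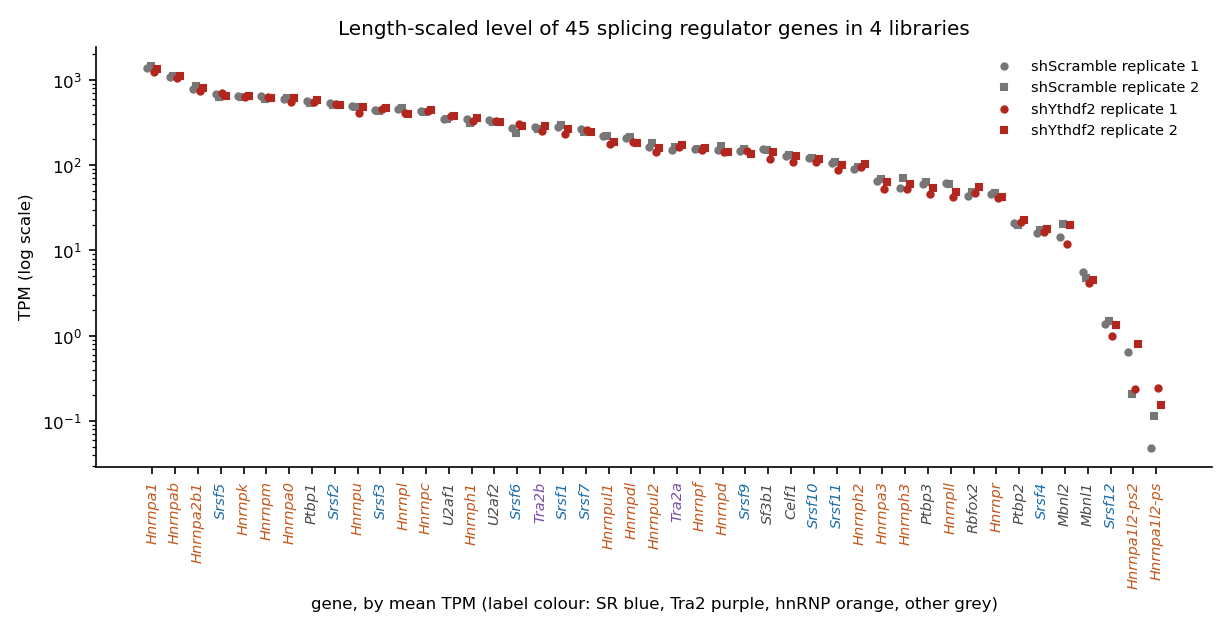
Length-scaled level (TPM, log axis) of each of the 45 splicing regulator genes in each of the 4 libraries, ordered by mean TPM. Levels run from 1345 TPM for Hnrnpa1 to 0.139 TPM for Hnrnpa1l2-ps, and grey and red points of a gene mostly lie on top of each other.

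None of the 44 tested members passed an adjusted p of 0.05 in edgeR's quasi-likelihood test, where 3.91% of all genes tested did (2.43% higher and 1.49% lower). At an unadjusted p under 0.05, 3 members were lower and 0 higher (6.82%, against 20.8% of all genes). DESeq2 called 1 member, Hnrnpll, where it called 8.90% of the genes to which it gave an adjusted p, and limma-voom called 0, where it called 3.39%. By the study's criterion, which asks of DESeq2 an unadjusted p up to 0.05 and a log2 fold change of 1 or more in size, no member qualified, against 2.88% of the 30565 genes with a read.

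The changes themselves were small. The log2 fold changes of the 44 members ran from -0.39 to 0.24, with 20 above 0 and 24 below, and their median was -0.03 where the median of all genes was 0.00. The median size of change was 0.11 on the log2 scale, against 0.25 over all genes. It was 0.15 in the core spliceosome genes and 0.14 over the 5 comparison lists of splicing genes. In 28 members (63.6%) the fitted level in shYthdf2 was within 10% of the control, against 29.9% of all genes. That held for 48.3% of the core spliceosome genes and 47.3% of the genes in the 5 lists. The 95% interval lay inside a 1.5-fold change in either direction for 40 members (90.9%), and for 35.9% of all genes. That share is not particular to the members. It was 90% (54 of 60) in the core spliceosome genes and 79.1% (102 of 129) over the 5 comparison lists of splicing genes described below. The median SE was 0.10 in the members, 0.11 in the core spliceosome genes and 0.21 over all genes. In 26 members the larger gap between the 2 replicates of a group exceeded the change between groups. The groups did not overlap in 25 members (56.8%, against 51.8% of all genes), 18 of them lower in shYthdf2 (40.9%, against 25.5%) and 7 higher (15.9%, against 26.2%).

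**Figure D2:**
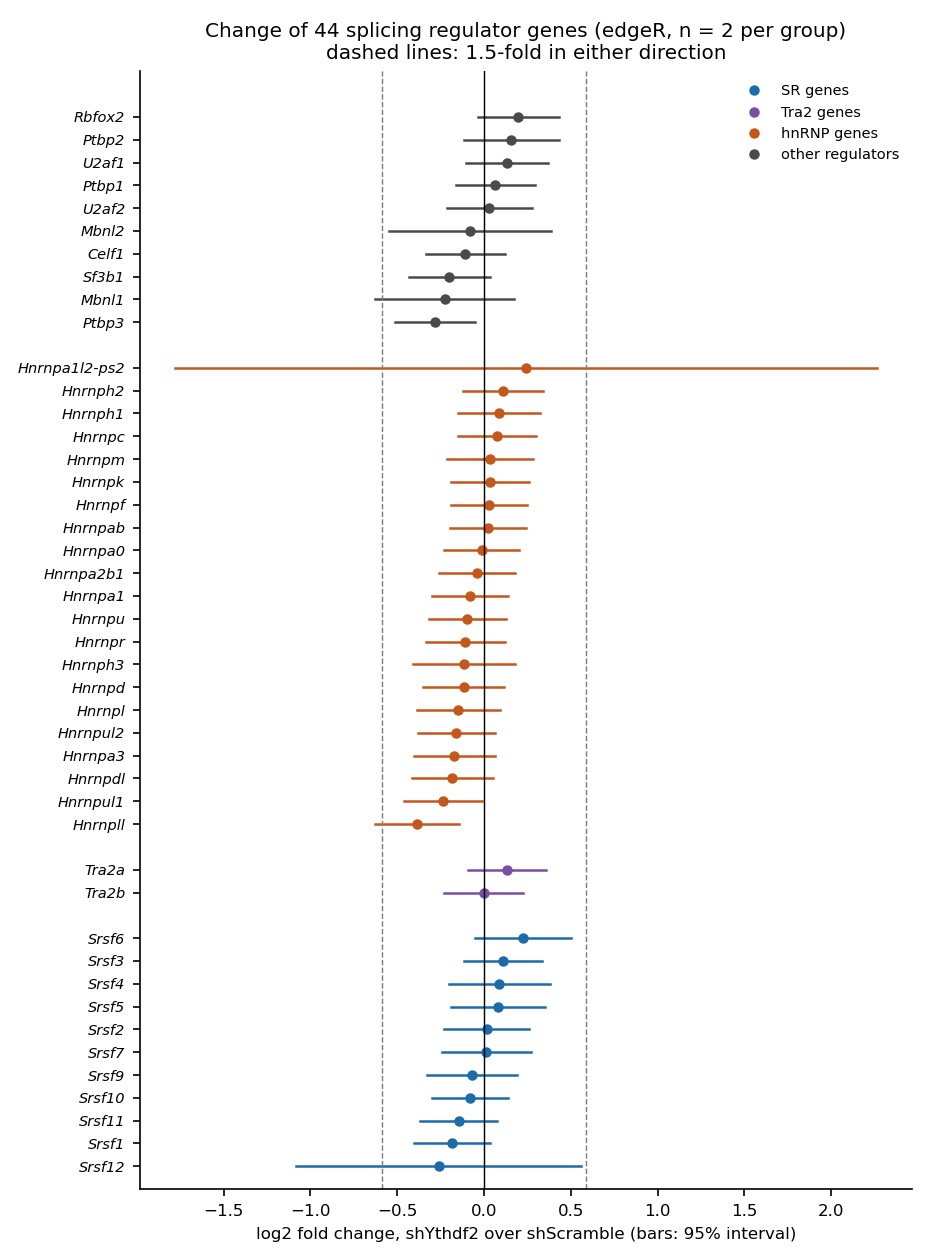
Log2 fold change of shYthdf2 over shScramble for the 44 tested members, by family, with the 95% interval of edgeR's fit (n = 2 libraries per group). Dashed lines mark 1.5-fold. Only Hnrnpll, Mbnl1, Srsf12 and Hnrnpa1l2-ps2 have an interval that reaches past a dashed line.

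Among the SR genes no member had an unadjusted p under 0.05. Their median log2 fold change was 0.01, with 6 above 0 and 5 below. Srsf6, an SR protein with a poison exon of its own, had the highest value: 394 and 333 CPM in shScramble and 460 and 390 CPM in shYthdf2, so the lower shYthdf2 library fell between the control libraries. Its log2 fold change was 0.23 (SE 0.12, adjusted p = 0.339 in edgeR's quasi-likelihood test). Its value depended on single libraries: without the second shYthdf2 library it was 0.34 and passed (adjusted p = 0.0246 in the same test), and without the first shYthdf2 library it was 0.10 (adjusted p = 0.748, edgeR). Without the second shScramble library it was 0.11 (adjusted p = 0.889, edgeR), and without the first it was 0.35 (adjusted p = 0.278, edgeR). A fit without 1 library leaves a group with 1 sample, which is assumed to vary like the other group, and the test then calls more genes overall (2288 without the second shYthdf2 library against 718). Srsf1, the founding member of the family, was at 729 and 737 CPM against 635 and 655 CPM. Both shYthdf2 libraries were below both controls, and the log2 fold change was -0.18 (SE 0.10, adjusted p = 0.325, edgeR). Srsf11 had a similar pattern, with 304 and 303 CPM against 269 and 280 CPM (log2 fold change -0.15, adjusted p = 0.444, edgeR).

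The abundant SR genes Srsf2 and Srsf7 differed more between replicates than between groups. Srsf2 was at 767 and 697 CPM in shScramble and at 787 and 694 CPM in shYthdf2, a log2 fold change of 0.02 (95% interval -0.23 to 0.26). Srsf7 was at 302 and 267 CPM against 308 and 267 CPM, a log2 fold change of 0.01 (95% interval -0.24 to 0.27). Srsf5 went from 460 and 406 CPM to 501 and 414 CPM, with a log2 fold change of 0.08 that lies inside its replicate gap. Srsf12, known for opposing other SR proteins, was covered by only 63 and 58 reads in shScramble and 46 and 59 reads in shYthdf2, and its log2 fold change of -0.26 had a 95% interval from -1.08 to 0.56. At that depth a 1.5-fold change of Srsf12 was not detectable. Of the Tra2 genes, SR-like activators of exons with GAA-rich enhancers, Tra2a was at 162 and 169 CPM against 185 and 179 CPM (log2 fold change 0.13, adjusted p = 0.497, edgeR), with both shYthdf2 libraries higher. Tra2b was at 416 and 383 CPM against 390 and 409 CPM, a difference of 0.00 on the log2 scale.

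No m6A-linked member passed the test. Srsf3 was at 545 and 510 CPM in shScramble and at 586 and 552 CPM in shYthdf2, with both shYthdf2 libraries higher by a small margin. Srsf10 was at 287 and 275 CPM against 268 and 264 CPM, with both lower. Their log2 fold changes were 0.11 (95% interval -0.12 to 0.34) and -0.08 (95% interval -0.30 to 0.14). Hnrnpa2b1 was at 1341 and 1398 CPM against 1339 and 1322 CPM, a log2 fold change of -0.04 (95% interval -0.26 to 0.18). Hnrnpc, whose protein binds uridine tracts, was at 701 and 667 CPM against 745 and 695 CPM, a log2 fold change of 0.07 (95% interval -0.15 to 0.30). A change of 1.5-fold lies outside all 4 intervals.

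The hnRNP genes held the member with the lowest p-value. Hnrnpll, whose protein is known for regulating the splicing of CD45 in lymphocytes, was at 77.3 and 72.9 CPM in shScramble and at 56.7 and 58.1 CPM in shYthdf2. The control libraries were both above both shYthdf2 libraries, and the replicate gaps were small beside the difference. Its level in shYthdf2 was 76.5% of the control, with a log2 fold change of -0.39 (SE 0.11, 95% interval -0.63 to -0.14). The unadjusted p was 0.00531 and the adjusted p was 0.0811 in edgeR's quasi-likelihood test, which did not pass, while DESeq2 gave an adjusted p of 0.0408. Without the second shYthdf2 library, which leaves 1 sample in that group, the value was -0.40 with an adjusted p of 0.0484, and over the 4 libraries left out in turn the adjusted p reached 0.291 (edgeR). Its paralog Hnrnpl, which is 7.65-fold more abundant per length in shScramble, was at 725 and 710 CPM against 689 and 606 CPM (log2 fold change -0.15, adjusted p = 0.477, edgeR). The ratio of Hnrnpl to Hnrnpll, from TPM, was 7.51 and 7.79 in shScramble and 9.72 and 8.35 in shYthdf2. The groups did not overlap in it. Nor did they in Ptbp1 to Ptbp2, Ptbp1 to Ptbp3, U2af2 to U2af1 and Hnrnpa1 to Hnrnpa3, while in the remaining ratios, given below, they overlapped. How often ratios of other gene pairs would not overlap was not computed.

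Hnrnpul1, an hnRNP U-like protein also known in the DNA damage response, was at 364 and 345 CPM in shScramble and at 309 and 293 CPM in shYthdf2. All control values were above all shYthdf2 values. Its log2 fold change was -0.24 (SE 0.10, unadjusted p = 0.0411, adjusted p = 0.218 in edgeR's quasi-likelihood test). Its relatives were also lower without passing: Hnrnpul2 at 381 and 403 CPM against 350 and 351 CPM, and Hnrnpu at 1993 and 1884 CPM against 1771 and 1859 CPM. The log2 fold changes of Hnrnpul2 and Hnrnpu were -0.16 and -0.10.

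Over the 21 hnRNP genes tested the median log2 fold change was -0.08, with 8 above 0 and 13 below. In 10 of them both shYthdf2 libraries were below both controls (47.6%, against 25.5% of all genes), and in 1, Hnrnph2, both were above (4.76%, against 26.2%). These shares are not particular to the hnRNP genes. The exon junction complex list, described below, had 46.7% lower and 6.67% higher, and the other splicing RNA-binding proteins 34.3% and 17.1%. The kinases and import had 30% lower and 20% higher, the minor spliceosome 33.3% and 44.4%, and the core spliceosome 8.33% and 41.7%. In the A/B group Hnrnpa1 was at 1447 and 1490 CPM against 1394 and 1386 CPM, a log2 fold change of -0.08 (95% interval -0.30 to 0.14). Hnrnpa3 was at 140 and 145 CPM against 122 and 131 CPM (log2 fold change -0.17), and Hnrnpa0 moved by less than its replicate gap. Hnrnpdl, which regulates its own mRNA through an NMD isoform, was at 389 and 383 CPM against 361 and 320 CPM (log2 fold change -0.18, adjusted p = 0.365, edgeR). The F/H group, proteins that bind G-rich runs, had log2 fold changes between -0.12 and 0.11.

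Several abundant hnRNP genes differed by a few percent. Hnrnpab was at 1103 and 1107 CPM against 1136 and 1106 CPM, a log2 fold change of 0.02 (95% interval -0.20 to 0.24). Hnrnpk was at 908 and 853 CPM against 926 and 879 CPM, a log2 fold change of 0.04 (95% interval -0.19 to 0.26). In both genes the shYthdf2 values overlapped the controls. The pseudogene Hnrnpa1l2-ps2 had 11 and 3 reads in shScramble and 4 and 13 reads in shYthdf2, and its log2 fold change of 0.24 had a 95% interval from -1.78 to 2.26, so no direction can be read from it.

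**Figure D3:**
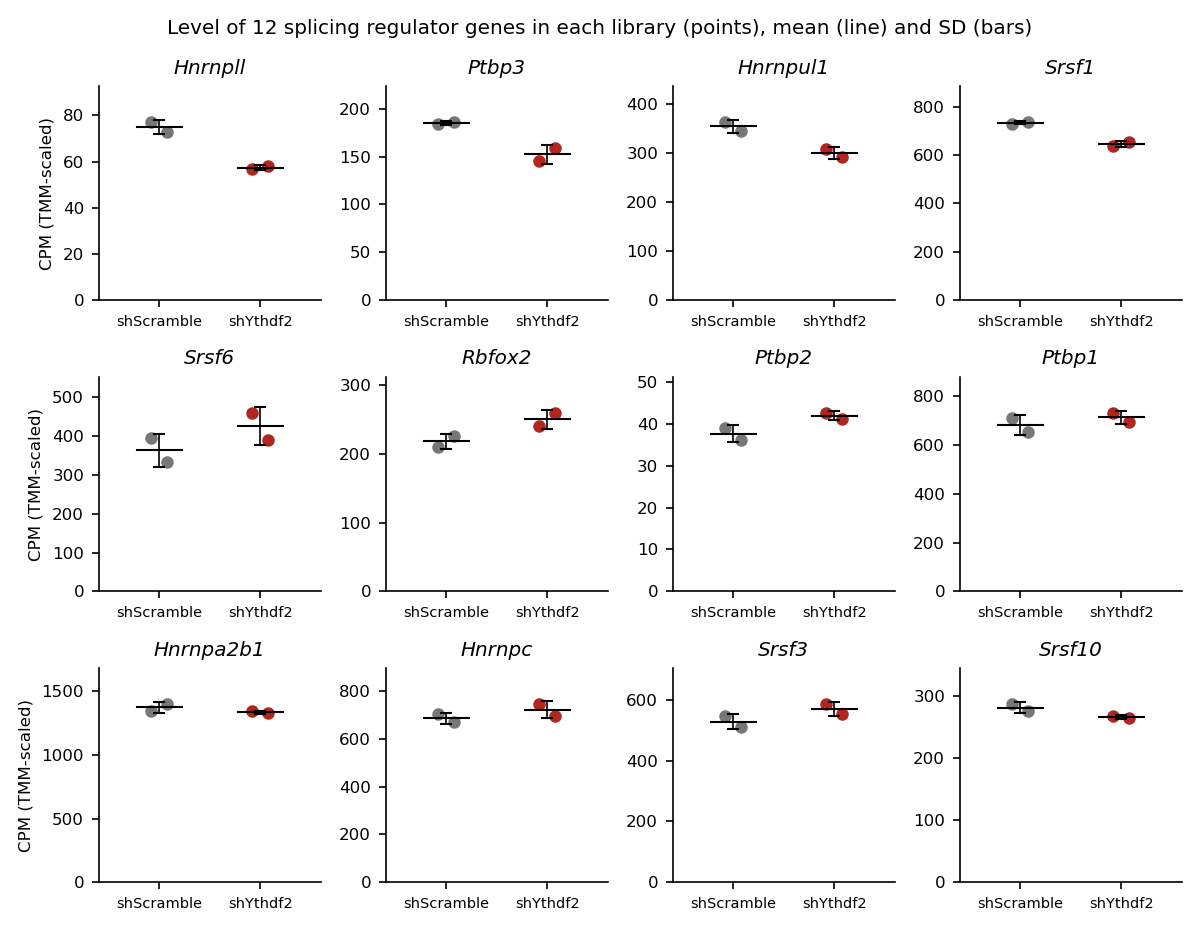
CPM of 12 members in each library (points), with the mean (line) and SD (bars) of the 2 libraries in each group; axes start at 0. Hnrnpll, Ptbp3, Hnrnpul1, Srsf1, Srsf10 and, by a narrow margin, Hnrnpa2b1 have both shYthdf2 points below both shScramble points, Rbfox2, Ptbp2 and Srsf3 have them above, and Srsf6, Ptbp1 and Hnrnpc overlap.

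Of the polypyrimidine tract binding proteins, which repress exons next to pyrimidine-rich sequence, Ptbp3 had the second lowest p among all members. It was at 184 and 186 CPM in shScramble and at 145 and 159 CPM in shYthdf2, with no overlap. Its log2 fold change was -0.28 (SE 0.10, unadjusted p = 0.0221, adjusted p = 0.163 in edgeR's quasi-likelihood test). Without the second shYthdf2 library, which leaves 1 sample in that group, the value was -0.35 with an adjusted p of 0.0446, and over the 4 libraries left out in turn the adjusted p reached 0.517 (edgeR). Ptbp1, the form that dominates in cells outside the nervous system, was at 709 and 651 CPM against 731 and 692 CPM and overlapped between groups (log2 fold change 0.07, adjusted p = 0.771, edgeR). Ptbp2, the neuronal form whose mRNA PTBP1 holds down by exon skipping and NMD, was at 39.0 and 36.1 CPM against 42.6 and 41.1 CPM. Both shYthdf2 libraries were higher, with a log2 fold change of 0.16 (SE 0.12, adjusted p = 0.521, edgeR).

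Per length, Ptbp1 exceeded Ptbp2 by 27.1-fold and 26.9-fold in shScramble and by 25.6-fold and 25.1-fold in shYthdf2. It exceeded Ptbp3 by 9.33-fold and 8.45-fold in shScramble and by 12.2-fold and 10.5-fold in shYthdf2. Neither ratio overlapped between groups, but for 2 libraries against 2 the smallest two-sided p of an exact permutation test is 0.333. Of the further ratios computed, Hnrnpl to Hnrnpll, U2af2 to U2af1 and Hnrnpa1 to Hnrnpa3 did not overlap either. Tra2b to Tra2a (1.88 and 1.66 in shScramble against 1.55 and 1.68 in shYthdf2), Hnrnpul2 to Hnrnpul1, Mbnl2 to Mbnl1 and Hnrnph1 to Hnrnph3 overlapped. The summed level of the 3 Ptbp genes was 932 and 873 CPM against 919 and 893 CPM, which overlapped.

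Rbfox2, which binds UGCAUG and controls exons used in mesenchymal and muscle programs, was at 210 and 225 CPM in shScramble and at 240 and 260 CPM in shYthdf2. Both shYthdf2 libraries were higher, and the log2 fold change was 0.20 (SE 0.10, adjusted p = 0.322, edgeR). The muscleblind genes, known for repressing ESC-specific exon choices in differentiated cells, were both low. Mbnl1 was at 17.5 and 14.3 CPM against 13.7 and 13.6 CPM (log2 fold change -0.23, SE 0.18, adjusted p = 0.526, edgeR), and its value lay between -0.37 and -0.07 when a library was left out. Mbnl2 was at 34.9 and 47.5 CPM against 30.7 and 47.2 CPM, so its replicates stood further apart than its groups.

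None of the factors that recognise the 3′ splice site and branch point passed the test. Sf3b1, the U2 snRNP subunit that clamps the branch point, was at 475 and 455 CPM against 384 and 426 CPM, with both shYthdf2 libraries lower (log2 fold change -0.20, SE 0.10, adjusted p = 0.317, edgeR). U2af1, which reads the AG at the 3′ splice site, was at 148 and 145 CPM against 168 and 153 CPM (log2 fold change 0.13, adjusted p = 0.524, edgeR). Its partner U2af2, which binds the polypyrimidine tract, was at 488 and 451 CPM against 511 and 449 CPM, with overlap (log2 fold change 0.03). Celf1, which binds GU-rich RNA, had a log2 fold change of -0.11.

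**Figure D4:**
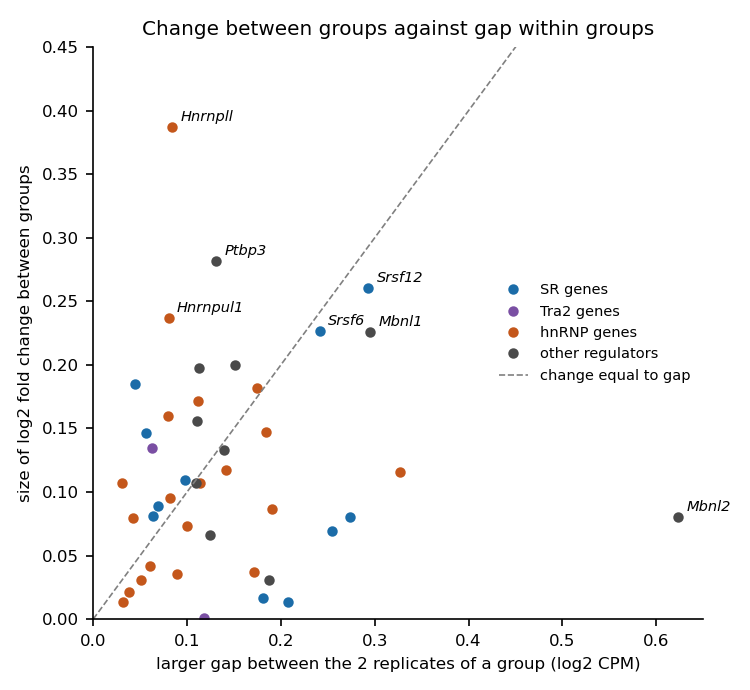
Size of the log2 fold change between groups against the larger log2 gap between the 2 replicates of a group, for 43 members (Hnrnpa1l2-ps2, with 13 reads at most, is not drawn). Hnrnpll, Ptbp3 and Hnrnpul1 lie well above the dashed line of equal size; Mbnl2 lies far below it.

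Many of the members, but not all, have an annotation feature that the choice by name did not use. In GENCODE M21, 27 of 43 members (62.8%) have at least 1 transcript annotated as a target of NMD, against 27.1% of the 14063 tested genes with a coding transcript. The share was 9 of 11 (81.8%) for SR genes and 10 of 20 (50%) for hnRNP genes. A transcript with a retained intron is annotated for 33 members (76.7%), against 55.7% of all. Such transcripts were not counted in the comparison lists of splicing genes. Hnrnpll, Ptbp3 and Srsf6 each have an NMD transcript, with 1, 2 and 1 annotated, and Hnrnpul1 and Rbfox2 have 0. The counts pool all exons of a gene, so how much of each level comes from such transcripts was not tested. Some members also share sequence with other genes, which affects how many of their reads can be placed. Of the 150-base windows of their transcripts, 89.8% in Hnrnpa3, 43.3% in U2af1, 40.1% in Hnrnpf and 37.6% in Hnrnpa1 occur exactly in a transcript of another gene. The share was 20.4% in Hnrnpk, 15% in Srsf3, 11.7% in Srsf5 and 11.1% in Tra2b. The levels of these genes are therefore uncertain. Hnrnpll, Ptbp3 and Hnrnpul1 have 0 such windows, as do many other members, among them Srsf1, Srsf6 and Rbfox2. The counting did not use strand. Of the exon bases, 51.9% in Hnrnph3, 34.7% in Srsf4, 29.7% in Srsf9 and 28.4% in Hnrnpab lie over an exon of a gene on the opposite strand. This share was 19.8% in Hnrnpdl, 15.9% in Srsf2 and 15.1% in Ptbp1. It was 1.5% for Hnrnpll and none for Ptbp3, Hnrnpul1 and many other members, among them Srsf1, Srsf6 and Rbfox2.

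Other genes of the splicing pathway were read from 5 lists for comparison. Of 60 core spliceosome genes tested (of 61), 43 had a positive log2 fold change and 17 a negative one, with a median of 0.12. Of the 60, 1 was called higher and 0 lower, where 2.43% of all genes tested were called higher and 1.49% lower. The one called was Dhx16, a helicase that activates the assembled spliceosome, on chromosome 17 from 35879764 to 35892670. It rose from 256 and 234 CPM to 395 and 323 CPM, a log2 fold change of 0.55 (SE 0.12, adjusted p = 0.0396 in edgeR's quasi-likelihood test). The call was lost without the second shScramble library, at a log2 fold change of 0.49 (adjusted p = 0.104 in the same test). At an unadjusted p under 0.05, 9 core genes were higher and 2 lower (18.3%, against 20.8% of all genes). Snrpf, which encodes a core Sm protein, had at most 11 reads in a library, and 84.5% of its exon bases lie over genes on the opposite strand.

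The other lists held no called gene, where 3.91% of all genes tested were called. The 9 minor spliceosome genes had a median of 0.04 on the log2 scale. The 10 genes of the kinases and the importin that handle SR proteins had one of -0.05, and the 15 genes of the exon junction complex and SR-related proteins had one of -0.14. The 35 other splicing RNA-binding proteins tested (of 36) had a median of -0.08. At an unadjusted p under 0.05 these 4 lists held 0 genes higher, and 2, 2, 1 and 3 genes lower in that order. These are 22.2%, 20%, 6.67% and 8.57% of the lists, against 20.8% of all genes. DESeq2 called 4 core spliceosome genes (3 higher and 1 lower), where it called 8.90% of all genes with an adjusted p. Whether the medians of the core spliceosome and the hnRNP genes differ from each other was not tested.

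**Figure D5:**
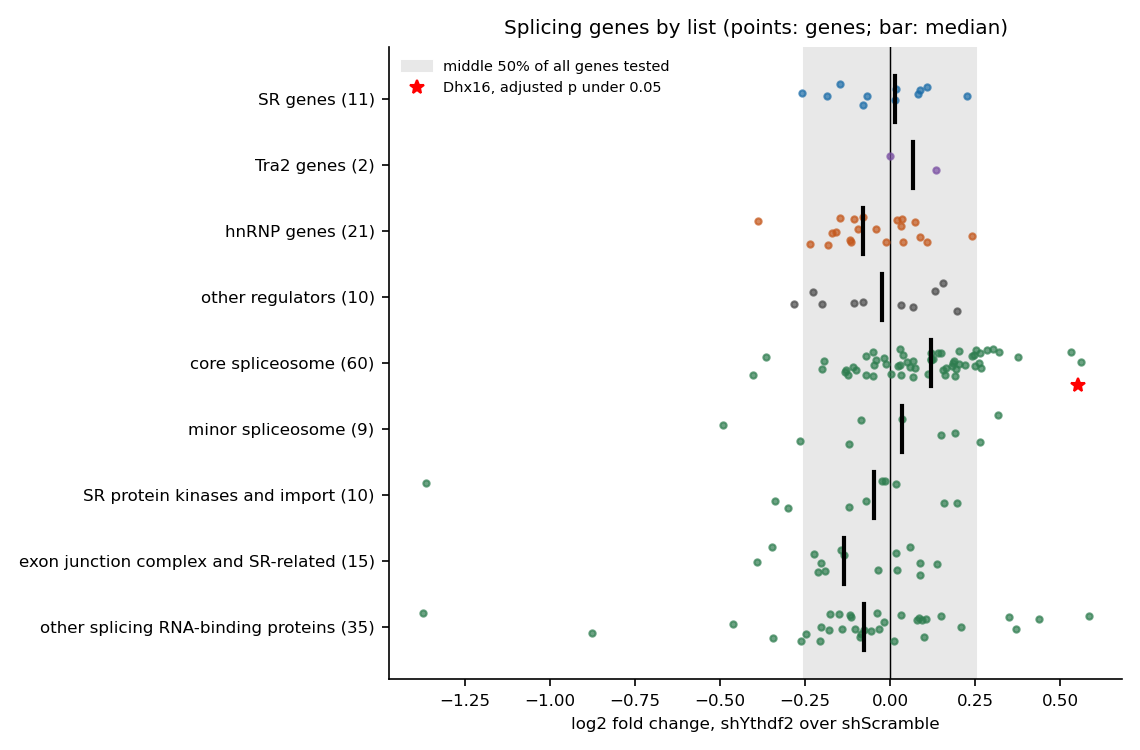
Log2 fold change of each tested gene (points) and the median (bar) for the SR, Tra2, hnRNP and other regulators and for the 5 comparison lists; the grey band holds the middle 50% of all genes tested. The star is Dhx16, the only gene of these lists with an adjusted p under 0.05, and the medians lie between -0.14 and 0.12.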

How the data were processed

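Poly(A) RNA of 4 libraries (2 shScramble, 2 shYthdf2, grouped by their titles) was analysed from the raw counts the authors deposited, which are reads per gene with no normalization. Per the file headers they come from featureCounts version 2.0.3 over RefSeq exons of mm10, with no strand option and with single reads rather than pairs counted. The submitters' processing notes name fastp 0.19.4, HISAT2 2.2.1 and DESeq2 1.40.2. There were 0 further per-sample columns and 0 rows without a gene name.

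The counts were tested with edgeR's quasi-likelihood F test (version 4.0.16, R 4.3.3), two-sided, with TMM scaling, filterByExpr (minimum count 10, minimum total 15) and Benjamini-Hochberg adjustment over the 18341 genes tested, 99.9% of reads. DESeq2 1.42.0 and limma-voom (limma 3.58.1) were alternatives. The test was first run on simulated data. TPM used the length of a gene's exons on chromosomes only, since the deposited length adds alternate contigs. Totals per library were 36422510, 31113006, 34812976 and 35305720 reads. 3 reads came to between 0.083 and 0.095 CPM; such limits cover counting error only.

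The members and comparison lists were chosen with earlier results of these data known, so lists carry counts and medians and no test. Named in full were members with an adjusted p under 0.05 (none), the 5 largest changes in each direction, the 5 highest levels, Hnrnpa2b1, Hnrnpc, Srsf3, Srsf10, Ptbp1, Ptbp2 and Ythdf2, and called genes of the comparison lists. Further members were named after their values were seen. The study's methods call the replicates independent biological replicates.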

Additional observations from a re-analysis of the deposited data

How the results depend on the processing

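The counts of calls, the medians of the lists and the values of the named genes were recomputed with 13 alternatives; sums, ratios, levels, shares of members and sequence counts were not. All genes called in edgeR's quasi-likelihood test numbered 718 (445 higher, 273 lower), 1938 without a filter, 1402 with DESeq2, 880 by the study's criterion, 3525 (19.2% of all genes) with the replicate block and between 834 and 2288 when a library was left out. Members called numbered 0, 1 with DESeq2 (Hnrnpll), 2 with the replicate block (Hnrnpll and Ptbp3) and between 0 and 3 when a library was left out; without the second shYthdf2 library they were Hnrnpll, Ptbp3 and Srsf6. The replicate numbers are not stated to mark a shared batch. Deviations of same-numbered libraries from their group means correlated at 0.225 across 18341 genes and at -0.412 across the 44 members. These deviations had the same sign in 11119 of the 18341 genes and in 30 of the 44 members, and genes are not independent. The 44 include the pseudogene Hnrnpa1l2-ps2, with replicates 1.68 (shScramble) and 1.63 (shYthdf2) apart in log2 CPM, in opposite directions. Its part in the correlation was not tested. A library left out leaves 1 sample in its group, which is assumed to vary like the other group. Core spliceosome calls went from 1 to 2 with library totals, with a mean of at least 1 CPM or with halved counts, to 4 without a filter and 4 with DESeq2, to 10 with the replicate block, and to between 0 and 12 when a library was left out. In the replicate block, 1 minor spliceosome gene, 2 kinase and import genes, 1 exon junction complex gene and 3 other RNA-binding protein genes were called; without a filter, 1 exon junction complex gene. Leaving out a library gave 0 to 1 in the first 3 of these lists and 0 to 3 in the last.

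The median log2 fold change of the members lay between -0.0626 and -0.0332 when a library was left out, and that of the SR genes between -0.0923 and 0.0865, so the SR median has no stable sign. That of the hnRNP genes was -0.0968 with upper-quartile scaling, -0.0950 with a mean of at least 1 CPM and between -0.0699 and -0.0515 when a library was left out. That of the core spliceosome lay between 0.0452 and 0.172, of the minor spliceosome between -0.0182 and 0.0914 and of the exon junction complex list between -0.160 and -0.0840 when a library was left out. That of the kinases and import was -0.0634 with upper-quartile scaling, -0.0306 with a mean of at least 1 CPM, -0.0234 with halved counts and between -0.0811 and -0.0321 when a library was left out. That of the other RNA-binding proteins was -0.0470 with a mean of at least 1 CPM, -0.0517 with halved counts and between -0.0735 and -0.0156 when a library was left out. The cause of these shifts was not tested.

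Of 271 values of 21 named genes, 258 kept their direction and side of the threshold. Direction turned only when a library was left out: for Hnrnpa1l2-ps2 (-0.336 without the second shScramble library, and between -0.777 and 1.31 over the 4 left out), for Srsf5 (-0.00797 without the second shScramble library, between -0.0637 and 0.211 over the 4) and for Hnrnpk (-0.00343 without the first shYthdf2 library, between -0.00908 and 0.0824 over the 4). 31 of 44 members kept their sign in every alternative. The adjusted p of Hnrnpll lay between 0.00534 and 0.291 over the alternatives, that of Ptbp3 between 0.0304 and 0.517 and that of Hnrnpul1 between 0.0641 and 0.625. The median SE of a member's log2 fold change was 0.10, which limits the size of change that 2 libraries a group could show.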
